A study of Arabidopsis thaliana with 4 samples.

Results

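Leaf explants of Arabidopsis thaliana, taken from the first leaf pair, went through 4 days on callus inducing medium, which carries auxin and cytokinin, and RNA was sequenced before and after. A set of 200 genes is described here that the authors listed as increased in lbd16-2 but not in wild type and that reached a well-expressed level in lbd16-2 at day 4. They were chosen from the deposited lists in steps. Of the 2251 genes in the lbd16-2 list, 594 are absent from the wild-type list, and 200 of those have a day 4 level of 7.14 or more on the log2 scale, which is 140.04 normalised reads, that is reads over a factor for the size of the library. The other 394 lie under that limit, and 2773 genes are listed in the whole series. Plants were Col-0 wild type or carried lbd16-2, a mutant allele of LBD16, with no other allele or agent named. All were 12 days old, grown at 22 °C in days of 16 h light, and explants were cultured in the dark. There was 1 library for each genotype at day 0 and at day 4, so no difference has a replicate check and no test was possible.

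The choice of genes used the lbd16-2 levels, their fold and the wild-type list. These values are therefore a description and support nothing. The deposited lists hold no wild-type levels of the 200 genes. Absence from the wild-type list places a gene's wild-type log2 fold at or under 3, or the gene among those not tested in wild type, and does not say that it stayed flat there. Whole explants were used, so fewer cells of a type and less RNA per cell cannot be told apart. None of 6 leaf mesophyll marker genes is in any list, which hold increased genes only, and all 6 callus or root primordium markers are in the lists of both genotypes.

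LBD16 encodes a LOB-domain transcription factor induced by auxin through the auxin response factors ARF7 and ARF19, and it acts in the founding of lateral roots. Callus on such medium forms along a lateral root programme from cells near the vasculature, also when the explant is a leaf. Cut leaves in the dark also activate wound, defence and nutrient recycling genes, and the lists do not separate these programmes. LBD16 itself (AT2G42430) went from 20.9 to 981 normalised reads in the wild-type libraries over the 4 days. In those labelled lbd16-2 it went from 34.3 to 518. It is listed in both genotypes, and reads summed over a gene do not check that label.

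The 200 genes made up 0.816% of the 24518 genes tested in lbd16-2, beside 9.18% for the whole lbd16-2 list, 8.91% for the wild-type list and 2.42% for the genes listed in lbd16-2 alone. Most of them were already detected in leaves before culture. At day 0 their median was 47.8 normalised reads, from 0 to 4091, and 12 of them (6%) had 3 reads or fewer. Among the 927 genes listed in both genotypes with the same level limit, the day 0 median was 12.99 and 278 (30.0%) had 3 reads or fewer. At day 4 the medians were 680.1 and 668. The median log2 fold was 3.64 in the 200 genes, from 3.00 to 8.74, and 5.47 in the 927. The log2 fold was under 4 in 134 of the 200 (67%) and in 243 of the 927 (26.2%). The wild-type exclusion favours genes near the limit by itself, and these differences were not tested.

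**Figure D1:**
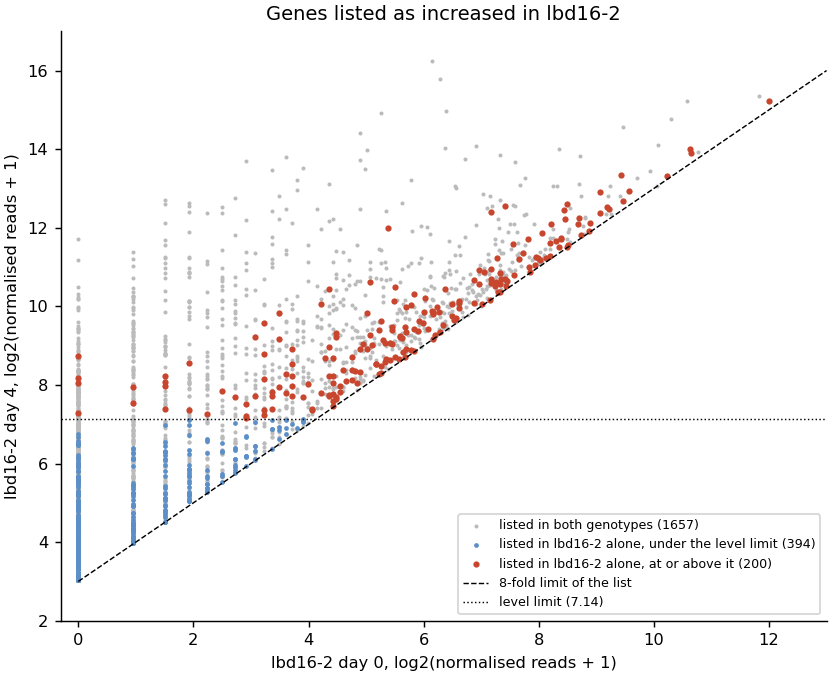
Day 0 level against day 4 level in lbd16-2 for the 2251 listed genes, both as log2(normalised reads + 1), 1 library per day. Red points are the 200 genes listed in lbd16-2 alone at or above the level limit of 7.14 (dotted line), blue points the 394 under it and grey points the 1657 listed in both genotypes; most red points lie close above the 8-fold limit (dashed line).

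How far under the limit such genes can lie in the other genotype is seen only in the mirror case, because lbd16-2 values were deposited for genes listed in wild type alone. There were 202 genes listed in wild type alone with lbd16-2 values and a wild-type day 4 level of 7.14 or more. Their wild-type log2 fold had a median of 3.62, close to the 3.64 of the 200 genes. In lbd16-2 the same 202 genes had a median log2 fold of 2.48, with the middle 50% between 1.99 and 2.77 and the highest at 3.00. Of these, 150 (74.3%) still had a log2 fold of 2 or more, and 16 (7.92%) had less than 1. The day 0 median of the 202 genes was 41.2 normalised reads for the wild-type library, against 89.0 for the lbd16-2 one. Their lower median fold in lbd16-2 thus went with a higher median starting level. How much of the lower fold goes with that level was not tested. All these values belong to other genes and give no wild-type value for the 200. The 95% counting interval of the fold extended to 8 or lower in 56 of the 200 genes and lay above 8 in the other 144.

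**Figure D2:**
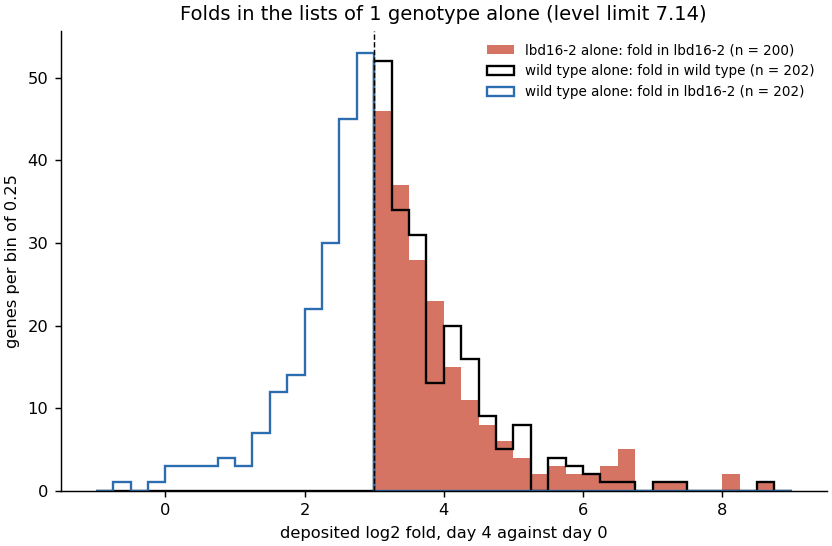
Histograms of the deposited log2 fold of day 4 against day 0, in bins of 0.25. Filled red bars are the 200 genes listed in lbd16-2 alone, and lines are the 202 genes listed in wild type alone, with their wild-type fold in black and their lbd16-2 fold in blue; the dashed line is the limit of 3, below which all lbd16-2 folds of the 202 lie.

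Of the 200 genes, 102 have a p-value under 0.05 in the authors' deposited table and 1 has an FDR under 0.05, AT1G65810 at 0.0295. The annotation gives a symbol other than the locus identifier to 95 of them, and 21 fall only among uncharacterised products. That class follows the wording of the product text and takes in genes of known function such as GSR 1, SRO5 and OPS. There are 199 protein-coding genes and 1 long noncoding RNA, AT4G06080. Another annotated gene overlaps 38 of the 200, on the other strand for 35 and on the same strand for 7, and since the use of strand in counting is not given their values are uncertain. Only some of the 38 are marked below where their values are given, and CYP72C1, LUP1, PAP17, BCA3 and AT3G09405 are among those not marked. By level, the genes nearest the limit from above were IPT1 (7.17), AT1G65240 (7.21) and NAC080 (7.24), and from below AT4G26120 (7.12), BGLU28 (7.12) and AT4G27480 (7.11), each a log2 level at day 4. By log2 fold, the 3 nearest the fold limit were AT1G66620 and AT1G79420, both at 3.00, and CKS2 at 3.01.

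The 10 largest deposited log2 folds belonged mostly to genes with few or no reads in leaves. AT1G65810, a gene for a P-loop nucleoside triphosphate hydrolase, went from 0 reads to 427 normalised reads, which is at least 154-fold higher against a floor of 3 reads. Also at 0 reads on day 0 were AT5G38900, which encodes a protein of the thioredoxin superfamily (291 at day 4, at least 104-fold), the beta glucosidase gene BGLU29 (262, at least 94.2-fold) and SRO5, a relative of the stress regulator RCD1 (155, at least 55.5-fold). These 4 were the only ones of the 200 with no read at day 0. The peroxidase gene AT1G30870 went from 1 read to 246 normalised reads, and the P450 gene CYP724A1 from 1 read to 184. P1R3 and AT5G45990, the latter annotated as a crooked neck protein, had 2 reads each, with 297 and 269.9 at day 4. The pectin lyase-like gene AT4G20040 had 3 reads and 378. Among these 10 only GSTF7 had more than 3 reads at day 0. AT5G38900, SRO5, AT1G30870 and AT4G20040 overlap another gene on the other strand.

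Per length of transcript the highest day 4 levels belonged to genes with high leaf levels and folds near the limit. DJ1A, a member of the DJ-1 family of the glutamine amidotransferase-like fold, went from 2460 to 23063 normalised reads per kb. GASA6, a gibberellin-regulated peptide gene, had 1750.1 and 16893 per kb. The pectin lyase-like gene AT3G53190 had 780 and 8077 per kb, and TMO6, a Dof transcription factor gene named as a target of MONOPTEROS, had 738 and 6353. GDH2, GSR 1, GSTF6, the protein phosphatase gene AT5G02760, the hydroxyproline-rich glycoprotein gene AT5G65660 and MAKR6 followed, from 5556 down to 3682 per kb at day 4. Of these 10 the fold was under 11 in all except GDH2 and GSTF6.

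Roles were given to 87 of the 200 genes from their annotation, after their values were seen. The groups are an ordering and were not tested. Each fold below is a linear ratio of day 4 to day 0 without a pseudocount, followed in parentheses by its exact binomial 95% counting interval.

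The defence group holds 17 genes with log2 folds from 3.05 to 6.34. It was put together by hand and has no share over all genes. Defence proteins by product text are a different set. It holds CHI, AT3G16330 and AT3G26470 of this group but not, among others, BGL2, UGT76B1 or WRKY48. That set was 3% of the 200, 2.91% of the 927 and 2.97% of the 202 genes listed in wild type alone. These near-equal shares do not describe the group of 17. The pathogenesis-related beta-1,3-glucanase gene BGL2, known as PR2 and used as a marker of salicylate responses, was at 10.2 normalised reads in leaves and 903 at day 4, 88.5-fold (49.3 to 178). The chitinase gene CHI (AT2G43570) went from 8.35 normalised reads before culture to 759 at day 4, 90.9-fold (47.7 to 199). UGT76B1, whose enzyme glucosylates salicylate and related immune signals, was at 7.42 normalised reads in leaves and 592 at day 4, 79.7-fold (40.3 to 185). In these 3 genes day 0 counts were 8 to 11 reads, and the authors' deposited FDR was 0.0534, 0.0649 and 0.107. The WRKY transcription factor gene WRKY48 went from 31.5 normalised reads before culture to 910.2 at day 4, 28.9-fold (20.6 to 41.8), and WRKY60 was at 42.7 normalised reads in leaves and 706 at day 4, 16.6-fold (12.3 to 22.7). PDLP1 and HWI1, the latter also named PDLP5, encode proteins located at plasmodesmata, the channels between plant cells, and their folds were 12.7 (10.1 to 16.2) and 12.2 (9.20 to 16.4). The jasmonate synthesis gene AOC3 went from 64.00 normalised reads before culture to 1182 at day 4, 18.5-fold (14.5 to 23.8). AT3G22160, named JAV1 for its link to jasmonate, had a fold of 8.89 (7.26 to 10.99). CHAT, whose enzyme makes a leaf volatile released on wounding, was at 38.96 normalised reads in leaves and 531 at day 4, 13.6-fold (9.999 to 19.04). IGMT2, a methyltransferase gene of indole glucosinolates, went from 33.4 normalised reads before culture to 521 at day 4, 15.6-fold (11.2 to 22.4), and AT1G26380, a berberine-type oxidase gene, was at 9.28 normalised reads in leaves and 224 at day 4, 24.1-fold (12.96 to 50.7). The calcium-permeable channel gene CNGC19 had the lowest fold of the group, 8.46 (6.13 to 11.98). MYB15, AT3G16330, AT3G26470 and MLO4 had log2 folds of 3.44, 3.85, 3.26 and 3.12.

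Among redox and detoxification genes, 12 in all, 3 belong to the phi class of glutathione S-transferases. These enzymes attach glutathione to reactive compounds. GSTF7 went from 40.8 normalised reads before culture to 4081 at day 4, 99.98-fold (74.4 to 138), GSTF6 was at 143 normalised reads in leaves and 5439.6 at day 4, 38.1-fold (32.5 to 44.95) and GSTF2 went from 21.3 normalised reads before culture to 200.3 at day 4, 9.39-fold (6.15 to 15.02). Of the 12 annotated GSTF genes these 3 are in the set, GSTF5 is listed in lbd16-2 alone under the level limit going from 0 reads to 32.1 normalised reads, and GSTF3 is listed in both genotypes. GSTF3 had 11.9 and 188 normalised reads in wild type, and 0 and 102 in lbd16-2. GSTF7, GSTF6 and GSTF5 lie next to one another on chromosome 1 on the same strand. How reads matching several genes were handled is not known from the labels, so reads of these copies may be split between them.

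The 250 bases before the annotated starts of GSTF7, GSTF2 and GSTF3 are shown because they set 2 members of the family in the set beside the one listed in both genotypes. They come from the RefSeq TAIR10.1 assembly, in which all 3 genes lie on the minus strand, and are printed 5′ to 3′ along the gene with the W-box core TTGAC, on either strand, in capitals. The W-box is the motif that WRKY factors bind.
GSTF7 (chromosome 1): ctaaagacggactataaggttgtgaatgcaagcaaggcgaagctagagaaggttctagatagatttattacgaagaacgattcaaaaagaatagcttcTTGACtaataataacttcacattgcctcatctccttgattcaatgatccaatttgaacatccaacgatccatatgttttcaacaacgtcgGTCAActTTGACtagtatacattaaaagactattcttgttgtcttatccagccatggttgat
GSTF2 (chromosome 4): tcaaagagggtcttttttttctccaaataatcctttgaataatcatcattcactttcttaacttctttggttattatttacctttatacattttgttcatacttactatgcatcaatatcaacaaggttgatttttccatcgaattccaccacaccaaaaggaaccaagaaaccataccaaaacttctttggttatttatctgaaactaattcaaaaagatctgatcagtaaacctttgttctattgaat
GSTF3 (chromosome 2): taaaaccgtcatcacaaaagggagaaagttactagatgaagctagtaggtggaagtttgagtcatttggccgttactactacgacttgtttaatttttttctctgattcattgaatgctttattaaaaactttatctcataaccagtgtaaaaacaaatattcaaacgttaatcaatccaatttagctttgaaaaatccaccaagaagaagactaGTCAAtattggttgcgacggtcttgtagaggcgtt
The W-box core occurs 3 times before GSTF7, once before GSTF3 and 0 times before GSTF2 in these windows. No pair of these windows shares a run of more than 11 bases.

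The 4 peroxidase genes of the set covered a wide range of leaf levels. Class III peroxidases are secreted enzymes that use hydrogen peroxide in the wall. AT1G30870, AT5G39580 and AT2G41480 (peroxidase 25) had 0.928, 4.64 and 19.5 normalised reads at day 0, and 246, 230.1 and 1401 at day 4. AT2G22420 was at 333 normalised reads in leaves and 3411 at day 4, 10.2-fold (9.21 to 11.4). Of 84 annotated peroxidase genes of this class 31 are listed in both genotypes, 4 are in the set, 5 are in lbd16-2 alone under the limit and 3 in wild type alone. UPB1, a bHLH transcription factor gene known as a repressor of root peroxidase genes, is itself among the 200 and went from 12.1 normalised reads before culture to 297 at day 4, 24.6-fold (14.3 to 46.5).

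Genes of nutrient handling made up 20 of the 200, and 16 of them had a log2 fold under 4. Genes for enzymes of ammonium and glutamate turnover reached the highest levels per kb among them. GDH2, a glutamate dehydrogenase gene, was at 690.1 normalised reads in leaves and 10329 at day 4, 14.97-fold (13.9 to 16.1). GSR 1 (AT5G37600), a cytosolic glutamine synthetase gene, went from 753 normalised reads before culture to 7847 at day 4, 10.4-fold (9.71 to 11.2). The urea transporter gene DUR3 was at 18.6 normalised reads in leaves and 410.2 at day 4, 22.1-fold (14.2 to 36.4), and the amino acid importer gene LHT1 went from 96.5 normalised reads before culture to 988 at day 4, 10.2-fold (8.40 to 12.6). Of the UMAMIT family of amino acid exporters, SIAR1 (UMAMIT18) was at 70.5 normalised reads in leaves and 930.4 at day 4, 13.2-fold (10.5 to 16.8) and UMAMIT20 went from 159.5 normalised reads before culture to 1833 at day 4, 11.5-fold (9.85 to 13.5). The hexose transporter gene MSS1 (STP13) was at 169.7 normalised reads in leaves and 1656 at day 4, 9.75-fold (8.40 to 11.4). Among phosphate genes, the transporter gene PHT1;4, the acid phosphatase gene PAP17 and the phospholipase gene NPC3 had folds of 11.6 (9.53 to 14.3), 10.6 (9.67 to 11.7) and 8.21 (7.02 to 9.64). The zinc transporter genes ZIP4 and ZIP5 had nearly equal folds, 11.1 (9.15 to 13.7) and 11.1 (7.76 to 16.6), at different levels, 1086 and 320.4 normalised reads at day 4. The vacuolar exchanger gene CAX3 had the largest fold of the group and went from 10.2 normalised reads before culture to 575 at day 4, 56.4-fold (31.4 to 113). PCR2, a metal efflux gene, was at 21.3 normalised reads in leaves and 594 at day 4, 27.9-fold (18.5 to 44.2). The aquaporin gene PIP2;5 went from 416 normalised reads before culture to 4868 at day 4, 11.7-fold (10.6 to 12.9). NAT7, ABCG29, CAX7, AT1G47670 and AT1G21140 had log2 folds of 4.08, 4.00, 3.37, 3.23 and 3.57.

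Transporter and channel genes were the product class whose share differed most in points from the genes listed in both genotypes at the same level limit. By product text, 21 of the 200 genes (10.5%) fell in that class, beside 48 of the 927 genes listed in both genotypes at the same level limit (5.18%) and 9 of the 202 listed in wild type alone (4.46%). Cell wall proteins made up 7% of the 200, 6.90% of the 927 and 2.48% of the 202, and glutathione S-transferases 2%, 1.19% and 0.495%. Genes named as transcription factors in the product text made up 9.5%, 10.03% and 9.41%. That wording leaves out some factors, such as TMO6 in the set and LBD16 and LBD29 among the genes listed in both genotypes. Without the level limit the order of the classes changes. Transporters were then 7.07% of the genes listed in lbd16-2 alone and 4.77% of those listed in both genotypes, and transcription factors, at 6.73% and 10.1%, differed more. At the level limit, proteases or their inhibitors made up 1.5% of the 200, 4.31% of the 927 and 1.98% of the 202. The wording of the classes was corrected after values were seen, a gene may fall in several classes, and these shares were not tested. In all, 99 of the 200 fell in a named class and 80 in none, not even among uncharacterised products.

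**Figure D3:**
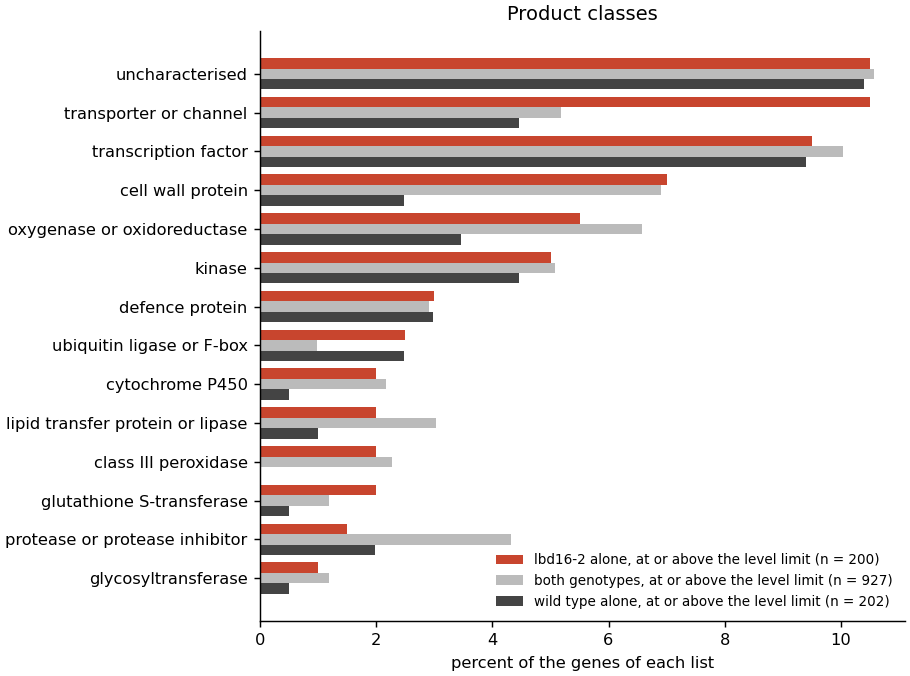
Share of genes in each of 14 product classes, in percent of each list on the horizontal axis. Red bars are the 200 genes listed in lbd16-2 alone, grey bars the 927 listed in both genotypes and dark bars the 202 listed in wild type alone, all at or above a day 4 level of 7.14; the transporter class is at 10.5% in red and 5.18% in grey.

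Cell wall genes included 4 of the 31 annotated xyloglucan endotransglucosylase/hydrolases, enzymes that cut and rejoin the xyloglucan chains of the wall. XTH18 was at 50.1 normalised reads in leaves and 709 at day 4, 14.2-fold (10.8 to 18.96), XTR6 (XTH23) went from 69.6 normalised reads before culture to 939.9 at day 4, 13.5-fold (10.7 to 17.3), XTH25 was at 11.1 normalised reads in leaves and 222 at day 4, 19.98-fold (11.3 to 39.01) and XTH33 went from 25.97 normalised reads before culture to 419 at day 4, 16.1-fold (11.1 to 24.5). The family had 6 further members listed in both genotypes, among them the next genes on the chromosome to XTH18 and XTR6. XTH19, next to XTH18, had 32.1 and 5431 normalised reads in wild type and 12.99 and 7916 in lbd16-2. XTH14, next to XTR6, had 0.698 and 36.8 in wild type and 0 and 86.8 in lbd16-2. AT3G53190 was at 1581 normalised reads in leaves and 16371 at day 4, 10.4-fold (9.86 to 10.9). XYP2, a relative of the xylogen proteins of vessel formation, went from 187 normalised reads before culture to 3082 at day 4, 16.5-fold (14.3 to 19.03). The arabinogalactan protein gene AGP27, the extensin-like gene AT2G43150, the fucosyltransferase gene FUT4, AT3G09405 and AT4G18340 had log2 folds between 3.20 and 3.80.

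Vascular and meristem regulators were 8 genes, 7 of them with a log2 fold under 4 and all but UPB1 with over 100 normalised reads at day 0. WOX4, a homeobox gene that maintains the dividing cambium, was at 150.3 normalised reads in leaves and 1468 at day 4, 9.77-fold (8.33 to 11.5). It is the one of 14 annotated WOX genes in the set, and 4 others are listed in both genotypes. LBD4, a LOB-domain gene and so a relative of LBD16, went from 131 normalised reads before culture to 1885 at day 4, 14.4-fold (12.2 to 17.2). Of the 40 LOB-domain genes 13 are listed in both genotypes, LBD15 is listed in wild type alone and LBD4 is the one listed in lbd16-2 alone. LBD15 had 6.98 and 405 normalised reads in wild type and 19.5 and 133 in lbd16-2. TMO6 was at 1191 normalised reads in leaves and 10254 at day 4, 8.61-fold (8.13 to 9.12). MONOPTEROS itself (MP), the auxin response factor it is named for, is listed in wild type alone, with 493 and 5159 normalised reads there and 682 and 4674 in lbd16-2, a log2 fold of 3.39 and 2.78. OPS (OCTOPUS), a gene of early phloem, went from 535 normalised reads before culture to 7737 at day 4, 14.5-fold (13.3 to 15.7). DAG1, a Dof gene, was at 333 normalised reads in leaves and 3354 at day 4, 10.1-fold (9.05 to 11.2). ZPR1, which encodes a small leucine zipper protein that binds class III HD-ZIP factors, went from 291 normalised reads before culture to 3116 at day 4, 10.7-fold (9.55 to 12.03), and MAKR6, a membrane-associated kinase regulator gene, was at 534 normalised reads in leaves and 5327 at day 4, 9.97-fold (9.16 to 10.9).

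Hormone genes covered several pathways with 8 genes. GA2OX2, whose enzyme inactivates gibberellin, went from 143 normalised reads before culture to 1540.3 at day 4, 10.8-fold (9.16 to 12.8), and GASA6 was at 1593 normalised reads in leaves and 15372 at day 4, 9.65-fold (9.19 to 10.1). CYP72C1, whose enzyme inactivates brassinosteroids, went from 19.5 normalised reads before culture to 502 at day 4, 25.8-fold (16.8 to 41.9). BRL3, a brassinosteroid receptor gene of vascular cells, was at 227 normalised reads in leaves and 2053 at day 4, 9.03-fold (7.93 to 10.3), and AT4G30410 (IBL1), a helix-loop-helix gene, went from 129 normalised reads before culture to 1065 at day 4, 8.26-fold (6.95 to 9.89). IPT1, a gene of cytokinin synthesis, was at 6.49 normalised reads in leaves and 143 at day 4, 21.97-fold (10.5 to 55.2). The SAUR gene AT1G19840 went from 27.8 normalised reads before culture to 264 at day 4, 9.49-fold (6.55 to 14.2); it lies next to MP on the other strand. PID2, a kinase gene related to the auxin transport regulator PINOID, was at 70.5 normalised reads in leaves and 906 at day 4, 12.9-fold (10.2 to 16.4).

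Senescence and stress genes numbered 6. The NAC gene NAC016, which promotes leaf senescence, went from 2 reads to 167 normalised reads. SAG21 went from 160.5 normalised reads before culture to 1654 at day 4, 10.3-fold (8.84 to 12.1), PES2, a phytyl ester synthase gene of chlorophyll breakdown, was at 209.6 normalised reads in leaves and 2611 at day 4, 12.5-fold (10.9 to 14.3), and HSF4, a class B heat shock factor gene, went from 296 normalised reads before culture to 4345 at day 4, 14.7-fold (13.1 to 16.5). HVA22E and RAS1 had folds of 13.95 (11.7 to 16.8) and 10.7 (6.90 to 17.5). Of 96 annotated NAC genes 4 are in the set (NAC016, NAC061, NAC099 and NAC080), 6 are listed in lbd16-2 alone under the level limit, 16 in both genotypes and 6 in wild type alone. At or above the level limit the wild-type list alone also holds 4. SAG21 overlaps another gene on the same strand, and PES2 overlaps one on the other strand.

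Genes of cell division and the cytoskeleton lay near the limit. CKS2, which encodes a subunit bound to cyclin-dependent kinases, was at 230.0 normalised reads in leaves and 1864 at day 4, 8.10-fold (7.12 to 9.26). WYR, an INCENP-type gene of the chromosomal passenger complex, went from 156 normalised reads before culture to 1311 at day 4, 8.42-fold (7.19 to 9.90), and the kinesin gene ATK4 was at 44.5 normalised reads in leaves and 421 at day 4, 9.47-fold (7.06 to 12.96). The counting intervals of all 3 reached below 8. The myosin gene XIF went from 42.7 normalised reads before culture to 668 at day 4, 15.7-fold (11.7 to 21.5). CKS2, WYR and XIF overlap another gene.

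**Figure D4:**
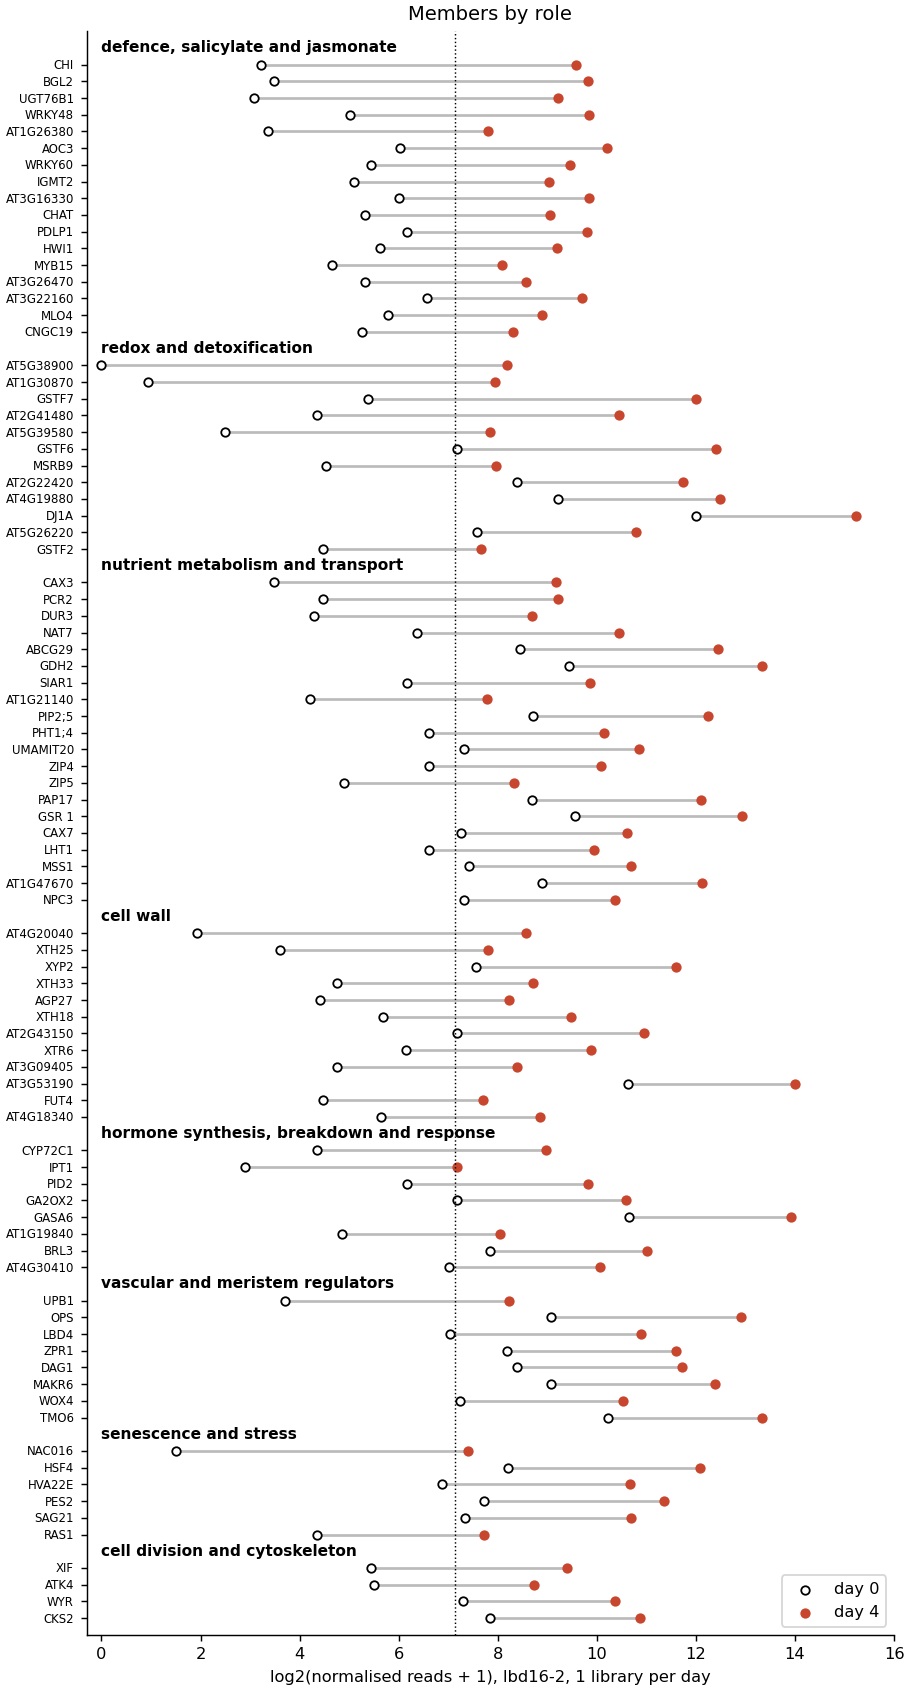
Levels of the 87 genes given a role, as log2(normalised reads + 1) in lbd16-2 at day 0 (open circles) and day 4 (red circles), 1 library each, joined by a line per gene and ordered by fold within each role. The dotted line is the level limit of 7.14; DJ1A lies farthest right, and AT5G38900 starts at 0.

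The remaining 113 genes had log2 folds from 3.00 to 8.74 with a median of 3.64, and 71 of them were under 4. They include AT5G17980, a C2-domain gene which went from 169.7 to 5982 normalised reads, the oxidoreductase gene AT1G60730 (359 and 6206), the triterpene synthase gene LUP1 (43.6 and 1124) and the carbonic anhydrase gene BCA3 (55.7 and 1283). Genes of the C2 or CaLB type, which bind calcium and lipids, numbered 5 of 58 annotated, AT5G17980, AT5G37740, SYTD, AT1G04540 and AT1G23140, and 4 others are listed in both genotypes.

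Of 284 genes in 17 lists drawn up by pathway 7 were among the 200, which is 2.46% beside 0.816% of all genes tested. They are BGL2 of 16 salicylate genes, ZIP5 of 20 iron and metal genes, PHT1;4 of 20 nitrate, phosphate and sulfate genes, MYB15 of 20 lignin genes, WOX4 of 14 vascular genes, and GA2OX2 and GASA6 of 14 gibberellin and brassinosteroid genes. The lists were drawn up with earlier results known and this share of 2.46% was not tested. Of the 14 gibberellin and brassinosteroid genes, 3 others are listed in wild type alone, 2 of them at or above the level limit. The other 11 lists had no member (camalexin, jasmonate and wounding, root hair, suberin and endodermis, shoot meristem and embryo, root primordium, senescence and starvation, abscisic acid and seed, ethylene, heat shock and DNA replication). The rule bars the 70 of the 284 genes that are in the wild-type list, and at a share of 0.816% a list of this length would seldom hold a member, so nothing is read from these zeros. Of 17 root hair genes 7 are listed in lbd16-2 alone under the level limit and 5 in both genotypes. Of the 24518 genes tested, 394 and 1657 are so listed. The 394 had a median of 0 reads at day 0, and the root hair counts were not tested.

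Several of the 200 genes lie next to each other or next to a listed relative. Of the 199 protein-coding ones, 10 (5.03%) have another of the set as the next protein-coding gene, beside 1.44% of all 27444 protein-coding genes and 1.72% of the genes listed in both genotypes that have one of the set next to them. The 5 pairs are GSTF7 with GSTF6, AT1G10990 with MLO4, AT1G30860 with AT1G30870, AT3G16330 with ABCG29, and SGR9 with AT5G02760, in 4 of them on the same strand. A gene of the whole lbd16-2 list is next to 23.1% of the 199, to 28.6% of the genes listed in both genotypes and to 15.1% of all protein-coding genes. These shares were not tested.

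Neighbours of one family were not always listed alike. LUP1 was at 43.6 normalised reads in leaves and 1124 at day 4, 25.8-fold (19.3 to 35.2), while LUP2, the next gene and also a lupeol synthase gene, is listed in wild type alone, with 280.5 and 4628 normalised reads in wild type and 283 and 1284 in lbd16-2. NPC3 is listed in lbd16-2 alone and the next gene NPC4 in wild type alone, with 8.37 and 260.4 in wild type and 23.2 and 182 in lbd16-2. In lbd16-2 the log2 fold was 3.03 for NPC3 and 2.92 for NPC4, close together on either side of the limit of 3. Reads of these lupeol synthase and phospholipase genes may be split between copies. The chitinase gene AT2G43580, next to CHI, is listed in both genotypes, with 0.698 and 432 in wild type and 0 and 271 in lbd16-2. UMAMIT17, next to UMAMIT20, had 64.2 and 726 in wild type and 57.5 and 928 in lbd16-2. WRKY23 and PAD3 belong to other families than their neighbours and were picked from 28 pairs with a neighbour listed in both genotypes. WRKY23, next to UPB1, had 142 and 2126 in wild type and 91.8 and 8617 in lbd16-2. PAD3, the P450 gene of the last camalexin step and the next gene to PES2, had 60.0 and 788 in wild type and 3.71 and 2146 in lbd16-2. Each wild-type and lbd16-2 value pair is given as day 0 and day 4.

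By chromosome, the 200 genes lay 57 on chromosome 1, 22 on chromosome 2, 44 on chromosome 3, 27 on chromosome 4 and 50 on chromosome 5. Chromosome 2 held 11% of them and 15.7% of all protein-coding genes, and the others differed less.

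Promoter motifs were searched on both strands in windows from 250 bases before to 50 after the start of 199 of the genes. The W-box core TTGAC occurred in 54.8%, beside 50.5% of all 27443 protein-coding promoters and 54.0% of those of genes listed in both genotypes. The TATA box TATAAA occurred in 54.3%, beside 52.1% of all promoters, 61.6% for genes listed in both genotypes, 61.9% for those listed in lbd16-2 alone under the level limit and 59.8% for those listed in wild type alone, so the share was near that of all promoters and under that of each other list. The auxin response element TGTCTC occurred in 17.59%, in 14.2% of all promoters and in 14.6% for genes listed in both genotypes, and TGTCGG in 4.02%, 5.12% and 4.67%. In the same order the as-1 core TGACG occurred in 25.1%, 23.1% and 22.3%, the G-box CACGTG in 5.03%, 7.68% and 7.06%, and the GCC-box core GCCGCC in 1.01%, 2.57% and 2.03%. The letters GCGGCG, given as a LOB-domain motif, were in 0 of the 199 windows, in 2.24% of all promoters and in 1.17% for genes listed in both genotypes. In the 250 bases before the start alone, the W-box core occurred in 47.2% of the set and 48.8% for genes listed in both genotypes. The as-1 core occurred there in 19.1% and 19.5%, so for these motifs the order was reversed. The other motifs kept their order. None of these differences was tested. TTGAC and TGACG can overlap where they are joined as TTGACG, and GCCGCC and GCGGCG can overlap on opposite strands. The mean GC content was 30.6% in the 199 windows and 32.2% in all.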

How the data were processed

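RNA of leaf explants was sequenced in 4 libraries, 1 per genotype and day. FastQC, Trim Galore, STAR, Cufflinks, DESeq and the TAIR10 genome are named by the submitters' processing notes. Their versions and settings, strand use and the treatment of multi-mapping reads were not given in the sources used here. The authors deposited 4 tables of listed genes with levels on a log2 scale. These log2 values were inferred to be the log2 of 1 plus the size-scaled read number: undone with 1 size factor per library (1.43 and 1.41 for wild type at day 0 and day 4, 1.08 and 1.68 for lbd16-2), 100% of the values came out as whole reads within 0.001. Total depth is unknown, because the tables hold listed genes only. The lowest value above 0 was 10 reads in wild type at day 4 and 1 read in each other library. The log2 fold, its p-value and FDR, and the ratio of folds between genotypes are the authors', per the file headers, and the fold has a pseudocount of 1. How p-values were obtained without replicates was likewise not stated in the labels.

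From the recovered reads, linear folds without a pseudocount and exact binomial 95% intervals were computed (Python 3.11.15, SciPy 1.17.1). They hold for counting error alone, and each compares a pair of libraries rather than conditions. A gene with 0 reads at day 0 has its fold given as a bound, taking 3 reads in its day 0 library as the floor, 2.78 normalised reads. The numbers of genes tested, 24518 in lbd16-2 and 24442 in wild type, were recovered as the numbers that make ratios of p-value to FDR whole ranks most often. Read recovery and intervals were tested on simulated data. All 2773 listed identifiers matched the RefSeq annotation of TAIR10.1, used for names, products, transcript lengths (longest transcript), gene order and promoters. Its coordinates are not printed, because the files name TAIR10. Of 310 symbols in the pathway lists, 291 matched 1 gene.

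The genes and lists were chosen with earlier results of these data known. Named genes were the 10 with the largest deposited log2 fold, the 10 with the most normalised reads per kb at day 4, members of classes, lists and roles, those at the limits, and relatives or neighbours in other lists. The roles, families, neighbours and promoters shown were chosen after values were seen. Some promoter sequence is not reported here.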

Additional observations from a re-analysis of the deposited data

How the results depend on the processing

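No paired analysis was possible because there is 1 library per group and the labels give no replicate numbers. No alternative replaces a replicate. The set of 200 genes would hold 66 with a log2 fold limit of 4, by the authors' deposited table, 102 at a p-value and 1 at an FDR below 0.05. Raising or lowering the level limit by 1 on the log2 scale gave 158 or 259 genes, of which 4 or 37, in place of 12, had 3 reads or fewer at day 0. The same number of genes taken by reads per kb kept 183. The median log2 fold of 3.64 was 3.66 and 3.53 with pseudocounts of 0.1 and 5 and 3.62 without the genes at 0 reads. Relative to the median fold of all genes listed in both genotypes it was -1.33. The share of the set with another member nearby was 8.54% within 3 genes in place of 5.03% for the next gene. With a pseudocount of 5, 7 of the 10 largest folds left their counting interval, all downward. Over the shared genes with at least 20 normalised reads the lbd16-2 day 0 level was 0.47 above wild type on the log2 scale. Shares of product classes without the level limit moved by over 1.5 times for 3 of 14 classes, and all 8 motif shares moved by less in the 250 bases before the start alone.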
